A study of Jaculus jaculus with 29 samples.

Results

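Ion channel genes of the potassium, calcium, sodium and HCN families were described in the supraoptic nucleus of the lesser Egyptian jerboa (Jaculus jaculus), a desert rodent. Members were all genes whose symbol in the authors' deposited table for Dehydrated against Control begins with Kcn, Cacna, Cacnb, Cacng or Hcn and a number or subfamily letter, or with Scn, a number and a or b. Of 29170 genes in the count table, 9699 carried a symbol there and 91 of these met the rule: 57 Kcn, 20 calcium channel, 11 Scn and 3 Hcn genes, in 21 subfamilies. Only 42 of the 91 encode pore-forming voltage-gated subunits. The rest are auxiliary subunits, silent subunits, inward rectifiers (Kcnj), tandem-pore leak channels (Kcnk) and channels opened by calcium or sodium (Kcnma1, Kcnn, Kcnt), so the set is wider than voltage-gated channels.

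Polyadenylated RNA from punches of the nucleus was counted in 29 libraries. The 10 Control animals drank freely (5 females and 5 males). The 10 Dehydrated animals (6 females and 4 males) had water restricted for 11 days, and the 9 Rehydrated animals (4 females and 5 males) had it restricted for 7 days and were then given water for 3 days. Ages are not given in the labels, all animals were single housed with dry food, and 12 bilateral punches of a 1 mm core were pooled per animal, so each library mixes neurons and glia of the nucleus and its border.

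The supraoptic nucleus holds magnocellular neurons, which make vasopressin and oxytocin and release them from the posterior pituitary in proportion to their firing. Sodium channels carry the spike, calcium channels couple spikes to hormone release, and potassium channels set spike width, the afterhyperpolarization and the silent periods of phasic bursts. HCN channels open on hyperpolarization and carry an inward current that depolarizes the cell. All 12 magnocellular markers checked were measured, and the vasopressin gene Avp averaged 934 CPM (a gene's counts scaled to a common library total) in Control, 3293 in Dehydrated and 2037 in Rehydrated. In such bulk samples, fewer cells of a type and less RNA per cell cannot be told apart.

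Control M01 stood apart from every other library in these genes, so results are given with and without it. Total counts were 10797577 to 17834438 per library in Control, lowest in Control M01, 14084542 to 18856620 in Dehydrated and 14235024 to 18516535 in Rehydrated. All 91 members passed the filter on low counts, with a median of 589 counts per library. At this depth the least counted member averaged 9.76 counts. The authors' deposited table that gave the symbols holds 17583 of the 29170 genes. Members were thus limited to those genes beforehand, and any channel gene outside them is missing from the counts of levels. Library numbers in the count table's header run from 1 to 15 for libraries with M in their name and from 16 to 29 for those with F, except 50 for Rehydrated M04. Labelled sex differs from the name letter in 3 libraries, so sex and name letter largely move together.

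The order of levels was read from CPM per kilobase of gene model, averaged over the 29 libraries (± SD). The median member stood at 11.6 CPM per kilobase, and 51 of 91 stood at 10 or more, 35 between 1 and 10 and 5 under 1. The 10 highest members held 41.2% of the summed level. Among them were Scn2b, Kcnab2, Cacnb3, Kcnk1, Cacng7, Kcnc4, Scn3b and Kcnc1, and 6 of these 10 encode auxiliary or partner subunits rather than pores. Of the members' gene models, 49 of 91 have a length that is a multiple of 3, close to the share of all genes (49.5%). A model of that kind may hold coding sequence alone, in which case reads of its untranslated ends were not counted.

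**Figure D1:**
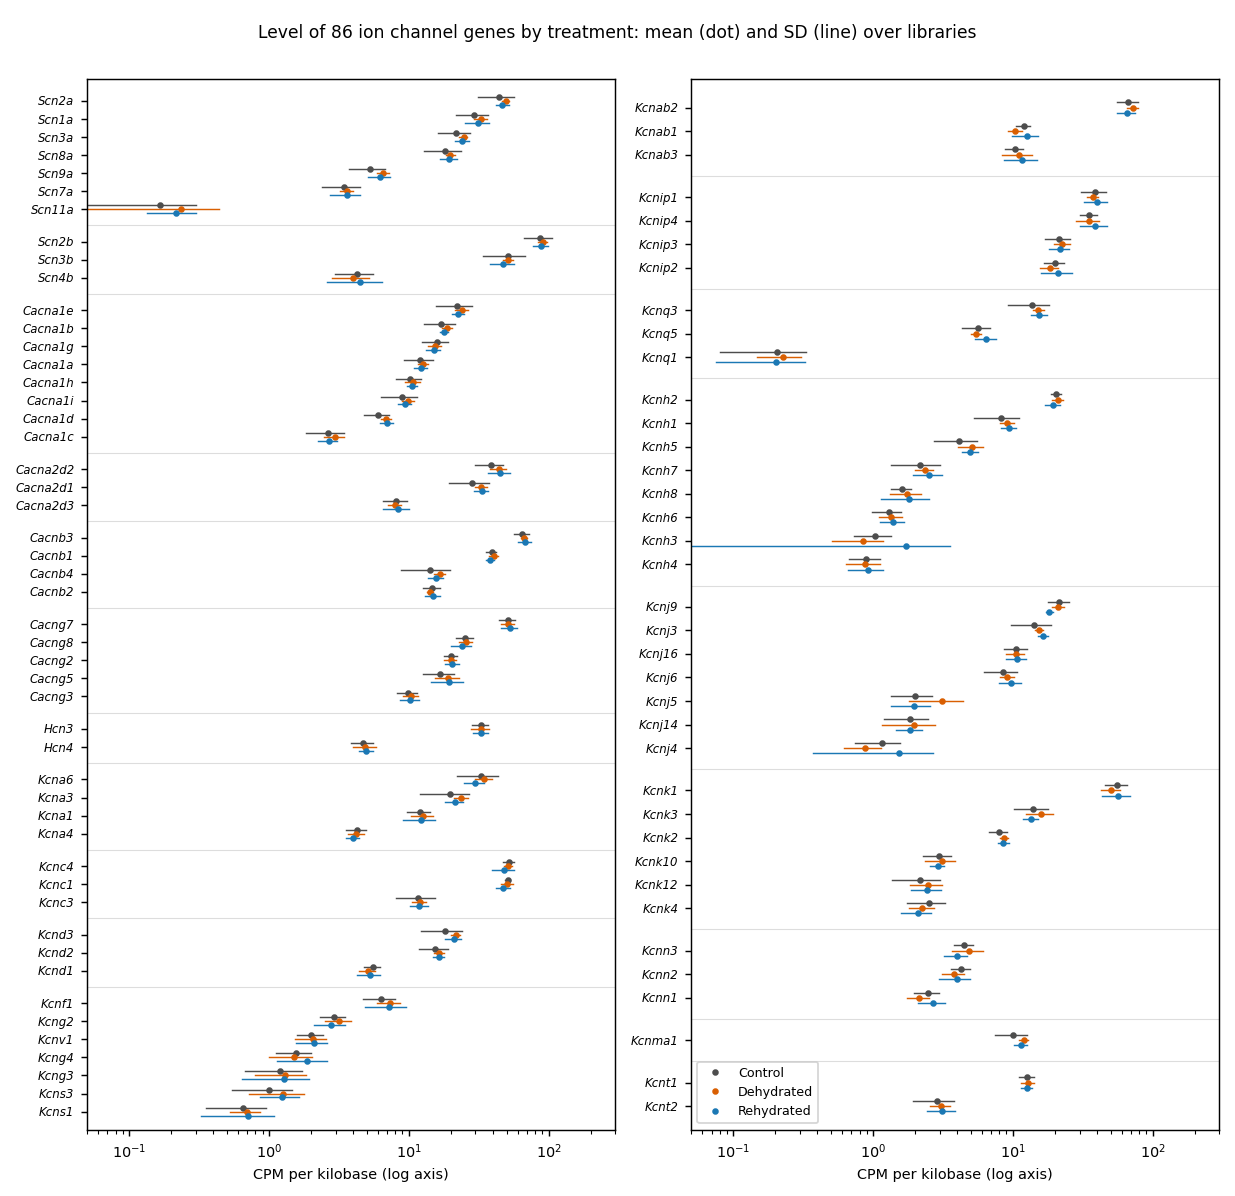
Level of channel genes in CPM per kilobase (log axis), as the mean (dot) and SD (line) over the libraries of each treatment, ordered within subfamilies; lines that reach the axis limit go on to lower values. The 3 treatments overlap for every gene, while genes of 1 subfamily lie far apart, as from Scn2a at 46.7 down to Scn11a at 0.206 CPM per kilobase.

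Among the sodium channel pores, Scn2a led at 46.7 ± 8.16 CPM per kilobase. Scn1a stood at 31.1 ± 5.85, Scn3a at 23.5 ± 3.90 and Scn8a at 19.2 ± 3.62. These 4 are the main sodium channels of central neurons, and the neighbours Scn1a and Scn3a, and Scn3a and Scn8a, differed by less than 2 SD. Scn9a and Scn7a, better known from peripheral neurons and from sodium-sensing glia, stood at 6.01 ± 1.26 and 3.55 ± 0.795. Scn11a, a channel of pain-sensing neurons, was lowest of all members at 0.206 ± 0.149. Of the beta subunits, which set gating and placement of the pore, Scn2b stood at 88.4 ± 13.5 and Scn3b at 49.998 ± 11.2, both above Scn2a in mean, though Scn3b by less than 1 SD. Scn4b was far lower at 4.24 ± 1.44. The 7 pores summed to 130 ± 21.1 CPM per kilobase.

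Of the calcium channel pores, the R-type Cacna1e was highest at 22.9 ± 4.22 CPM per kilobase. The N-type Cacna1b followed at 17.98 ± 2.72 and the P/Q-type Cacna1a at 12.3 ± 1.89; both are known for driving transmitter and peptide release. The T-type pores, which open at low voltage, came at 15.5 ± 2.34 (Cacna1g), 10.5 ± 1.51 (Cacna1h) and 9.41 ± 1.70 (Cacna1i). The L-type pores Cacna1d and Cacna1c were lowest at 6.60 ± 0.957 and 2.76 ± 0.584. Exons of Cacna1h overlap those of Tpsg1, and the counting names no strand, so reads of the pair cannot be told apart. The leading auxiliary subunits were again higher than the pores. Cacnb3 stood at 66.3 ± 6.24 and Cacnb1 at 39.3 ± 3.06 among the cytosolic beta subunits, and Cacna2d2 at 42.5 ± 7.92 and Cacna2d1 at 31.5 ± 6.27 among the alpha2delta subunits. Of the Cacng genes, most of which encode partners of AMPA receptors rather than of calcium channels, Cacng7 led at 51.6 ± 6.37 and Cacng8 followed at 25.0 ± 3.34.

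Among voltage-gated potassium channels, the fast Shaw-type Kcnc4 and Kcnc1, known for narrow spikes and high firing rates, were nearly equal at 50.5 ± 5.83 and 49.8 ± 4.64 CPM per kilobase. Kcnq3 and Kcnq5, subunits of the M-current, stood at 14.7 ± 2.96 and 5.82 ± 1.07. The Shaker-type pores were led by Kcna6 at 32.5 ± 7.30 and Kcna3 at 21.5 ± 5.12. The A-type pores Kcnd3 and Kcnd2, which delay the onset of firing, stood at 20.2 ± 4.04 and 16.1 ± 2.30. Their partners reached higher levels: Kcnip1 and Kcnip4, which bind the A-type pores, at 38.4 ± 6.28 and 36.1 ± 6.67, and Kcnab2, the main Shaker beta subunit here, at 68.3 ± 9.79, with Kcnab1 at 11.6 ± 2.00. Of the ether-a-go-go family, Kcnh2 stood at 20.3 ± 2.07 and Kcnh1 at 8.90 ± 1.97. The silent subunits, which make no channel alone, were low, with Kcnf1 at 6.92 ± 1.77 and Kcng2 at 2.97 ± 0.653.

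Of the other potassium channels, the leak channel Kcnk1 was highest at 54.1 ± 10.3 CPM per kilobase and the acid-sensitive Kcnk3 stood at 14.5 ± 3.20. The G-protein-gated inward rectifiers, which are opened by inhibitory receptors, were led by Kcnj9 at 20.4 ± 2.89 and Kcnj3 at 15.4 ± 2.90. The BK pore Kcnma1, opened by calcium and voltage together, stood at 11.1 ± 1.89. Kcnn3 and Kcnn2, the SK channels behind the afterhyperpolarization, stood at 4.46 ± 0.969 and 4.02 ± 0.789, and the sodium-activated Kcnt1 and Kcnt2 at 12.7 ± 1.31 and 3.00 ± 0.708. Of the HCN genes, Hcn3 stood at 32.7 ± 4.22 and Hcn4, best known from the pacemaker of the heart, at 4.85 ± 0.784.

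Several members are neighbours on the chromosome. Scn7a, Scn9a and Scn1a lie within 72891961 to 73409916 of chromosome 4, and Scn2a and Scn3a within 73982570 to 74281735. Scn2b and Scn4b lie at 96524146 to 96565815 of chromosome 3, Cacng8 and Cacng7 at 16321336 to 16405869 of chromosome 14, and Kcna6 and Kcna1 at 7545661 to 7670665 of chromosome 23. Levels differed widely inside these clusters, since Scn1a was 31.1 and Scn7a 3.55 CPM per kilobase.

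Between libraries most members varied little once Control M01 was set aside. The SD of log2 CPM had a median of 0.32 over all 29 libraries and 0.22 without Control M01, and it lay under 0.3 in 36 and in 67 of 91 members. Cacnb1, Cacnb3 and Kcnc1 were the steadiest members of moderate or high level, at 0.11, 0.13 and 0.14. Among members averaging at least 1 log2 CPM, Kcnh1, Kcnh7 and Kcnh3 had the widest SD, at 0.89, 0.80 and 0.76. For Kcnh1 and Kcnh7 the spread came from Control M01, since it was 0.17 and 0.27 without that library. For Kcnh3 it stayed at 0.77.

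In Control M01 the median member lay 0.77 log2 units under the mean of the other Control libraries, against -0.003 for all genes. There, 66 of 91 members were lower than that mean, and 50 (54.9%, against 28.7% of all genes) were the lowest of all 29 libraries. The sodium channel pore Scn2a had 79.8 CPM in Control M01 and 302 to 420 in the other Control libraries. Kcnh1 had 0.952 CPM against 20.2 in the next lowest Control library. Scn3b had 5.14 CPM against 38.3, Kcnd3 7.71 against 50.5 and Kcna3 2.00 against 20.1. Cacnb3, at 228 CPM, was instead the highest of all libraries there. Members of at least 3010 bases had a median of -1.29 and shorter ones -0.10, and all 4744 tested genes of at least that length had -0.44. The length of a member and its deviation in that library correlated weakly across the 91 members (Pearson's r = -0.25 with log2 length). Of 12 general neuronal markers, Map2 at 194 and Syt1 at 192 CPM were the lowest of all libraries there and Stmn2 at 1152 and Rbfox3 at 85.2 the highest, and the list's median log2 deviation was 0.09. The summed CPM of these markers was 7102 there, the lowest of all libraries, against 7948 to 9441 in the other Control libraries. By summed CPM, 15 ribosomal protein genes stood at 4278 against 2069 to 2724 in the other Control libraries. What sets this library apart was not tested.

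**Figure D2:**
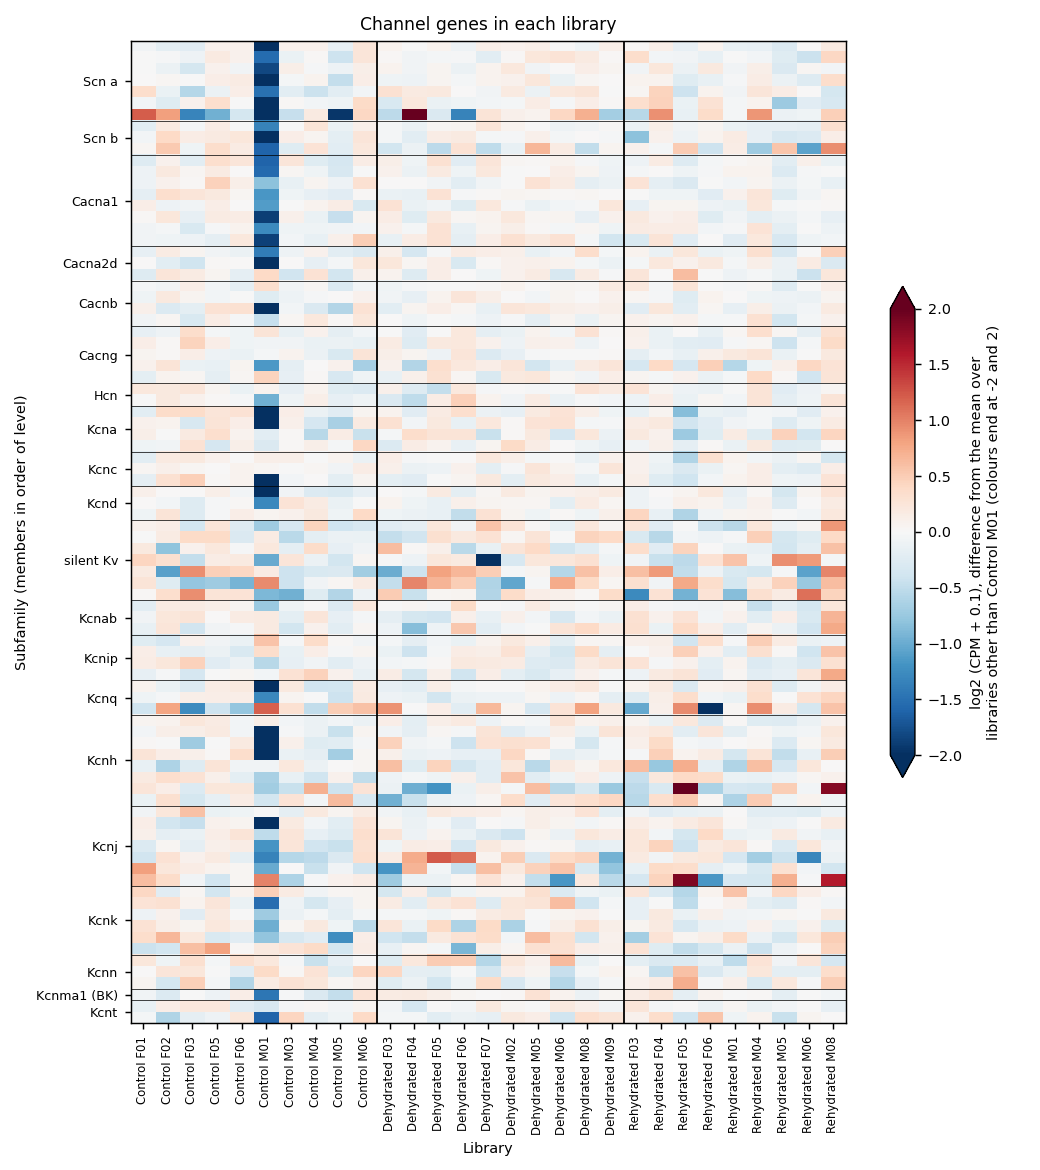
Each row is 1 channel gene, grouped by subfamily, and each column 1 library; colour is log2 (CPM + 0.1) as the difference from the mean over libraries other than Control M01, and black vertical lines divide Control, Dehydrated and Rehydrated. Control M01 is the column of low values (median -0.75 on the log2 CPM scale, other libraries -0.14 to 0.23), and no treatment forms a block.

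Dehydrated and Control animals were compared to ask whether the channel genes change during water restriction. By edgeR (quasi-likelihood, Benjamini-Hochberg over all genes) 0 members were under the adjusted threshold of 0.05, with 0.669 the smallest, while 0.125% of the 17558 genes tested were. DESeq2 likewise called 0 members. At an unadjusted p under 0.05, 2 of 91 members (2.2%) stood out against 6.37% of all genes, both higher in Dehydrated. Without Control M01 the count was 3 (3.3%) against 5.74%, and DESeq2 on all libraries gave 3 against 5.6% of all genes. Of 17540 genes with an adjusted p in the authors' deposited table, which may leave out Control M01, 0.262% passed, again with no member among them. The groups overlapped for every member, and the overlap over all genes was not counted.

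The member furthest from 0 by p was Kcnj5, a G-protein-gated inward rectifier subunit. Its CPM ran from 1.05 through a median of 2.36 to 3.52 in Control and from 1.40 through 3.75 to 6.63 in Dehydrated. In Dehydrated, 6 of 10 libraries lay above every Control library, highest in F05 and F06, while M09 lay under 9 of the 10 Control libraries. The log2 difference was 0.55 (SE 0.22, 95% interval 0.11 to 0.99, adjusted p = 0.669), and 0.49 without Control M01. The authors' deposited table gives 0.49 (SE 0.21, adjusted p = 0.638), near the value here without Control M01.

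Scn9a had 15.7 to 56.8 CPM in Control with a median of 39.6, and 41.1 to 54.9 with a median of 50.3 in Dehydrated. All 10 Dehydrated libraries lay above the Control median, yet Control F01 was above them all. Its log2 difference was 0.32 (SE 0.13, adjusted p = 0.704) and 0.24 without Control M01. The BK pore Kcnma1 had 24.7 to 81.9 CPM in Control (median 63.8) and 62.4 to 82.5 in Dehydrated (median 70.2). Its difference of 0.24 (SE 0.12, adjusted p = 0.774) was 0.16 without Control M01, the lowest library. The L-type pore Cacna1d, at 22.2 to 56.5 CPM in Control (median 51.1) and 48.6 to 65.3 in Dehydrated (median 54.8), went from 0.18 (SE 0.10) to 0.10 without it. The stretch-sensitive leak channel Kcnk2 differed by 0.13 (SE 0.08) and by 0.09 without it.

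On the lower side, Kcnab1 had 30.7 to 42.0 CPM in Control (median 37.4) and 27.1 to 37.8 in Dehydrated (median 32.04). In Dehydrated 8 of 10 libraries lay under the Control median, and its log2 difference was -0.20 (SE 0.10, adjusted p = 0.774). The SK channel genes Kcnn1 and Kcnn2 differed by -0.20 (SE 0.14) and -0.15 (SE 0.13), and the third, Kcnn3, by 0.12. Without Dehydrated M06 the difference of Kcnn2 was -0.10. Kcnj4, another inward rectifier, differed by -0.40 (SE 0.31), and by -0.27 without Control M01, its highest Control library. None of these intervals excluded 0.

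**Figure D3:**
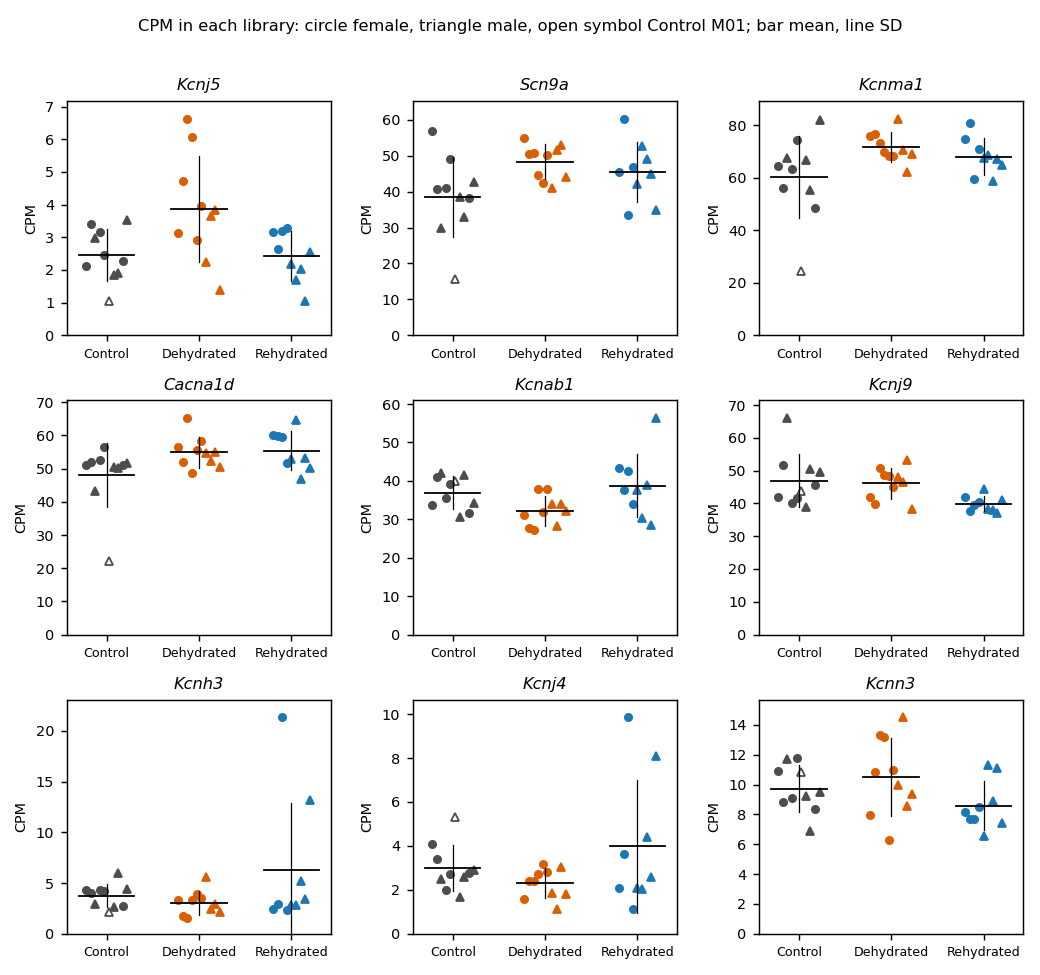
CPM of 9 channel genes in each library by treatment; circles are females, triangles males, the open triangle is Control M01, bars are means and lines SDs (the lower line of Kcnh3 in Rehydrated ends at 0). Treatments overlap in every panel, Control M01 is the lowest Control library of Kcnj5, Scn9a, Kcnma1 and Cacna1d, and Rehydrated F05 and M08 stand alone for Kcnh3 (21.4 and 13.15 CPM) and Kcnj4 (9.87 and 8.11 CPM).

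Taken as a list, 65 of 91 members had a log2 difference above 0 between Dehydrated and Control, with a median of 0.07, beside 49.2% and -0.003 for all genes tested. Without Control M01 the count was 58 and the median 0.02. That count and the one by name letter below are not set against all genes here. Within the libraries with F in their name the median was -0.03 and 35 members were above 0. Within those with M it was 0.20, and 0.07 without Control M01. The same library moved the subfamilies: all 7 sodium channel pores were above 0 with a median of 0.15, which became 6 and 0.06, and 7 of 8 calcium channel pores with a median of 0.13, which became 6 and 0.03. Silent subunits kept theirs at 0.12 and 0.15, and the 3 Hcn genes were at 0.00 and -0.01.

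The data bound most of these differences. The 95% interval of the log2 difference lay inside a 1.5-fold change either way for 74 of 91 members (81.3%, against 74.9% of all genes). It lay inside a 2-fold change for 88 (96.7%, against 91.6%). Without Control M01 the 1.5-fold count was 80 (87.9%, against 77.7%). For Kcnc1 the interval was -0.12 to 0.12, for Cacna1a -0.16 to 0.29 and for Scn2a -0.16 to 0.46. Summed over the 91 members, Dehydrated libraries had 5055 to 5645 CPM and Control libraries 4767 to 5714 without Control M01, which had 3255. In the same model 4 of 12 magnocellular markers passed the adjusted threshold, all higher in Dehydrated, with a median log2 difference of 0.56 over the list.

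**Figure D4:**
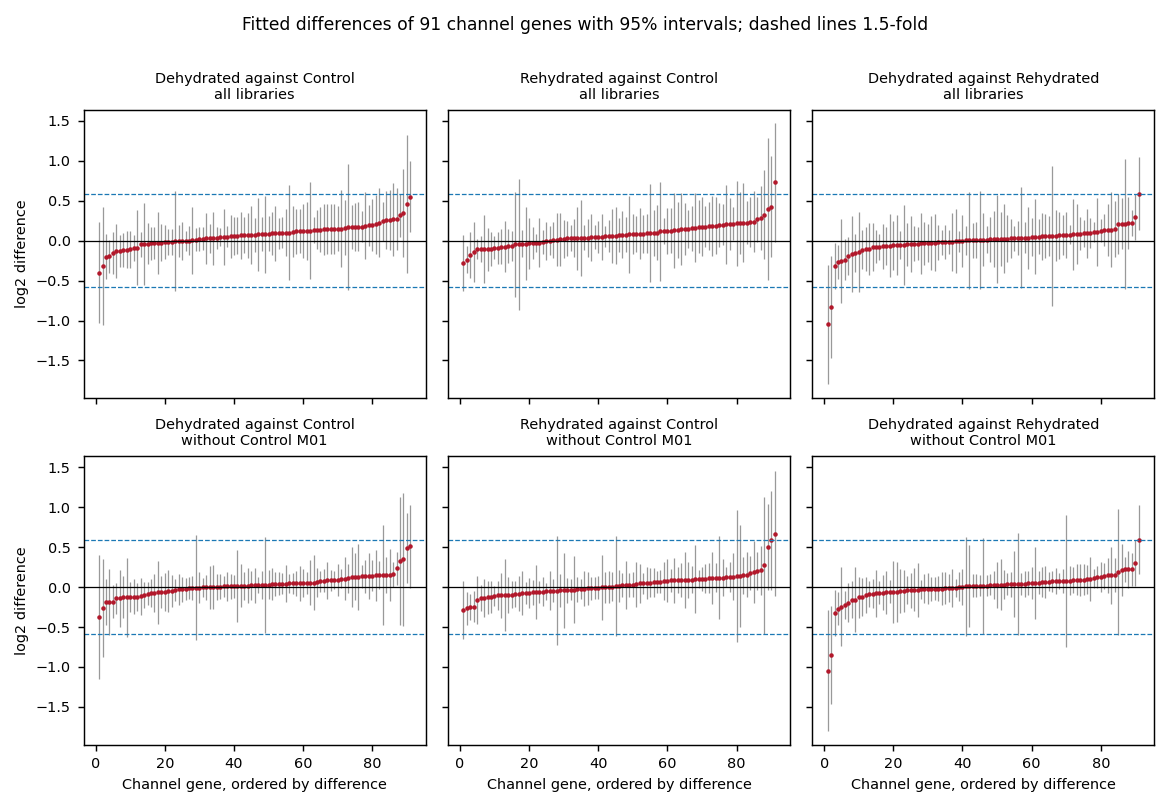
Fitted log2 difference (dot) and 95% interval (line) of each of the 91 channel genes in the 3 treatment comparisons, ordered by difference within each panel, with all libraries in the upper row and without Control M01 in the lower row; dashed lines mark a 1.5-fold change. The curve of Dehydrated against Control sits above 0 for 65 genes in the upper row and 58 in the lower, and the intervals are narrower in the lower row, with a median SE of 0.10 against 0.14.

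Rehydrated and Control animals were compared to ask what remains after water is returned. No member passed an adjusted p of 0.05 in edgeR (the smallest was 0.553), and 0% of all genes did. DESeq2 called 0 members too. At an unadjusted p under 0.05, 2 members (2.2%) stood out against 7.48% of all genes, 1 in each direction. Without Control M01 there were 4 (4.4%, 3 of them lower) against 7.97%, and DESeq2 on all libraries also gave 4, against 6.53% of all genes. In the authors' deposited table, which may leave out Control M01, 0.0228% of genes were under the threshold, with no member among them. The smallest adjusted p among members there was 0.268 for Kcnj9. Both comparisons with Control made here share the Control libraries, Control M01 included.

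Kcnj9, which forms G-protein-gated channels with other Kcnj subunits, had 38.8 to 66.1 CPM in Control (median 44.7), 38.4 to 53.2 in Dehydrated (median 47.4) and 37.2 to 44.3 in Rehydrated (median 39.6). All 9 Rehydrated libraries lay under the Control median, and Control F03 was the highest library. The log2 difference from Control was -0.24 (SE 0.08, adjusted p = 0.553). It was -0.25 without Control M01 and -0.17 without Control F03. Control M01, at 43.7 CPM, was near the middle of its group for this gene.

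Cacna1d had 46.7 to 64.8 CPM in Rehydrated with a median of 53.1, and its log2 difference from Control was 0.21 (SE 0.10, adjusted p = 0.645), or 0.13 without Control M01. Kcnh3 differed by 0.73 (SE 0.36), but by 0.13 without Rehydrated F05. Scn9a, at 33.4 to 60.4 CPM in Rehydrated, differed by 0.27 (SE 0.13) and by 0.17 without Control M01. Cacna2d2 and Kcnq5 differed by 0.22 (SE 0.13) and 0.20 (SE 0.13), and without Control M01 by 0.13 and 0.11. On the lower side, the Shaw-type genes Kcnc1 and Kcnc4 differed by -0.11 (SE 0.06) and -0.11 (SE 0.08), the leak channel Kcnk4 by -0.28 (SE 0.17) and Kcnh2, the pore of the cardiac rapid delayed rectifier, by -0.09 (SE 0.07). The difference of Kcnc4 was -0.05 without Rehydrated F05 and -0.16 without Rehydrated F06, and that of Kcnk4 was -0.15 without Control F05. The 2 further members with an unadjusted p under 0.05 without Control M01 were Kcna6 at -0.27 and Scn3b at -0.25. They are named here because their values were seen.

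As a list, 65 members were above 0 in Rehydrated against Control with a median of 0.07, and 48 with a median of 0.02 without Control M01. These counts are not set against all genes here. The calcium channel pores show how far that library reached: 7 of 8 were above 0 with it and 1 of 8, Cacna1d, without it. The 95% interval lay inside a 1.5-fold change for 73 of 91 members (80.2%, against 73.8% of all genes). Without Control M01 it did so for 81 (89.0%, against 76.1%). Summed CPM of the members in Rehydrated was 4884 to 6022.

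Dehydrated and Rehydrated animals were compared directly, a contrast in which Control M01 enters only through the terms shared by all libraries (spread, sex and scaling). No member passed an adjusted p of 0.05 in edgeR, nor in DESeq2, and all members had an adjusted p of 0.9999 in edgeR, where 0.0228% of all genes passed. At an unadjusted p under 0.05, 7 of 91 members (7.69%) stood out against 3.88% of all genes, 3 higher and 4 lower in Dehydrated, and DESeq2 gave 7 against 3.75%. Without Control M01 there were 9 (9.89%) against 6.51%. All of them are potassium channel genes. The median member differed by 0.01 and 52 of 91 were above 0, a count not set against all genes here.

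Among those higher in Dehydrated, Kcnj9 differed by 0.22 (SE 0.08, 95% interval 0.05 to 0.39), and 9 of 10 Dehydrated libraries lay above the Rehydrated median. Kcnj5, at 1.06 to 3.29 CPM in Rehydrated (median 2.55), differed by 0.59 (SE 0.22, interval 0.13 to 1.04), with 8 of 10 Dehydrated libraries above that median. Both of these subunits of G-protein-gated channels had their lowest mean in Rehydrated, 39.9 ± 2.32 CPM for Kcnj9 and 2.42 ± 0.75 for Kcnj5, although Kcnj5 in Control was close at 2.47 ± 0.79. Kcnj3 and the other such subunit among the members went the other way. Each had 9 of 10 Dehydrated libraries under the Rehydrated median. Kcnn3 had 6.26 to 14.5 CPM in Dehydrated and 6.53 to 11.3 in Rehydrated, a log2 difference of 0.30 (SE 0.14). Its unadjusted p was 0.0425, and 0.122 without Dehydrated M06, its highest library. Kcnc1 and Kcnh2 differed by 0.11 (SE 0.06) and 0.12 (SE 0.07).

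Among those lower in Dehydrated, Kcnh3 and Kcnj4 turned on 2 Rehydrated libraries. Kcnh3, an ether-a-go-go-like channel known from the forebrain, had 1.53 to 5.63 CPM in Dehydrated (median 3.10) and 2.31 to 21.4 in Rehydrated (median 2.92). Only Rehydrated F05 at 21.4 and M08 at 13.15 were outside the range of the other libraries, 1.53 to 5.97. The log2 difference was -1.05 (SE 0.36), but -0.42 without Rehydrated F05, with an unadjusted p of 0.176, and -0.81 without M08. Kcnj4, known from the same forebrain regions, had 1.12 to 9.87 CPM in Rehydrated (median 2.57), again highest in F05 and M08 at 9.87 and 8.11, against 1.11 to 5.33 in the other libraries. Its difference of -0.83 (SE 0.31) was -0.48 without F05 and -0.62 without M08.

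Markers of forebrain neurons outside the hypothalamus moved with these libraries. The list, chosen after Kcnh3 was seen to vary, has 12 genes, of which 9 were tested, 1 (Drd1) was not matched and 2 (Neurod6 and Emx1) were near 0, at up to 1.55 and 1.11 CPM. Summed CPM of the 9 was 307 in Rehydrated F05 and 329 in M08, 178 to 268 in the other Rehydrated libraries, 160 to 238 in Control and 199 to 254 in Dehydrated. Ppp1r1b, a striatal marker, had 152 and 160 CPM in F05 and M08 against at most 120 elsewhere, and Ddn 16.7 and 18.6 against at most 10.5. Tbr1, a cortical and amygdalar marker, had 15.3 and 17.2 CPM there against 22.3 to 30.7 in the other Rehydrated libraries. The summed magnocellular markers were 1973 and 949 CPM there, the last the lowest of all libraries. The part of other regions in the values of Kcnh3 and Kcnj4 was not tested.

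Kcnab1 had 28.5 to 56.4 CPM in Rehydrated (median 37.6) and differed by -0.27 (SE 0.10), or -0.19 without Rehydrated M08, its highest library. Kcnn1, at 4.52 to 8.84 CPM in Dehydrated and 5.45 to 11.2 in Rehydrated, differed by -0.32 (SE 0.14), or -0.21 without Rehydrated F05, its highest library. Kcnq5 differed by -0.24 (SE 0.13).

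Males and females were compared over the 3 treatments, since both sexes were in each. No member passed an adjusted p of 0.05 in edgeR or in DESeq2, where 0.0342% of all genes passed in edgeR, and 3 (3.3%) had an unadjusted p under 0.05 against 3.87% of all genes. Kcnj5 was lower in males by 0.55 (log2 difference -0.55, SE 0.18, adjusted p = 0.993). Its means were 2.68, 4.57 and 3.07 CPM in Control, Dehydrated and Rehydrated females, and 2.25, 2.79 and 1.90 in males. In Rehydrated its CPM ran from 2.64 to 3.29 in females and from 1.06 to 2.55 in males, while the sexes overlapped in the other groups. Kcnj5 was picked by its p, and how often other genes part the sexes in 1 group was not counted. Kcnh6 differed by -0.24 (SE 0.11) and Cacng7, which stood at 106 CPM in Control females and 124 in Control males, by 0.17 (SE 0.06). Split by name letter in place of labelled sex, the Control means of Cacng7 were 115.4 (F) and 115.3 CPM (M). Its highest Control libraries were F03, labelled male, at 146.6 CPM and M01 at 137.7.

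Whether the dehydration response differed between the sexes was tested by an interaction. No member passed an adjusted p of 0.05 in edgeR or DESeq2, and 0% of all genes did. At an unadjusted p under 0.05 there was 1 member (1.1%, against 6.05% of all genes). Kcnn1, whose dehydration difference was lower in males than in females by 0.52 on the log2 scale (difference -0.52, SE 0.26, adjusted p = 0.818), and Kcnh4 at 0.70 (SE 0.36) missed that threshold.

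Genes whose proteins bind or place these channels were described beside them. Of 40 such partners, 37 were tested and none passed an adjusted p of 0.05 in any of the 3 treatment comparisons. In Dehydrated against Control their median log2 difference was 0.07 with 25 above 0, and 0.03 with 21 without Control M01. The axonal anchors Ank2 and Ank3 were at 0.19 and 0.09, and at 0.09 and -0.01 without Control M01. The A-type partner Dpp6 was at 0.09 and 0.05. Nalcn and Unc80, of the sodium leak channel, were at 0.09 and 0.20, and at 0.00 and 0.08 without that library. At an unadjusted p under 0.05 there were 0 in Dehydrated against Control (6.37% of all genes) and in Dehydrated against Rehydrated (3.88%). In Rehydrated against Control there were 2 of 37, where 7.48% of all genes had such a p. Amigo1, a partner of delayed rectifier potassium channels, differed in Rehydrated against Control by 0.24 (adjusted p = 0.584).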

How the data were processed

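The deposited table holds raw counts of fragments per gene, which the authors obtained from paired ends with featureCounts 1.6.2 against Ensembl genes of mJacJac1, per the file header, and names no strand setting. No source used here gives the aligner. The authors' deposited tables of log2 fold changes, p-values and adjusted values come from DESeq2 according to the submitters' processing notes. They are quoted beside the fits made here. Their Dehydrated against Control values for Scn9a (0.24), Kcnma1 (0.16) and Cacna1d (0.10) match those found here without Control M01. The deposited fits may therefore leave that library out, which was not settled here. A further 56 deposited columns of values per library were not used.

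Low genes were removed with filterByExpr in edgeR 4.0.16 (R 4.3.3). The 17558 left were scaled by TMM and fitted by robust quasi-likelihood with a term for treatment and another for sex (29 libraries, 25 residual degrees of freedom). P-values were adjusted over all of them by Benjamini-Hochberg with a threshold of 0.05. The SE is the log2 difference divided by the square root of F, and 95% intervals follow from it. RefSeq names were matched where at least 0.5 of both gene spans overlapped, which held for 84 of 91 members and named 5594 other genes. The fits were tested on simulated data.

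Named members have the 5 smallest p in each direction of a treatment comparison, the 3 smallest for sex or interaction, the 10 highest levels, the 2 highest of a subfamily, or the 3 widest or narrowest spreads; others fill out a subfamily. Some members are counted but not reported here by name, in text or figures. Members, lists and this rule were chosen with earlier results of these data known. Samples are numbered within groups and animals were single housed, so a library was taken as 1 animal. Counts of all 126 pairs within groups differed by more than sampling noise (chi-square per degree of freedom 8.52 to 152). Alternatives used DESeq2 1.42.0, other scalings, filters and covariates, a replicate block, and libraries left out in turn.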

Additional observations from a re-analysis of the deposited data

Results flagged for a closer look

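Among groups of 9 or 10 libraries checked for a library far from the rest, 33 of 150 had one. Some of the genes were picked by p or spread in these data, and 1 library recurs across genes. A chance rate of about 1 in 20, for unselected and independent groups, therefore does not apply. Control M01 accounted for 20 of the 33. It was the lowest Control library, by CPM, for the calcium channel genes Cacna1b (43.9), Cacna1d (22.2), Cacna1e (60.3), Cacna2d1 (19.6) and Cacna2d2 (73.3). It was lowest for the sodium channel genes Scn1a (80.1), Scn2a (79.8), Scn2b (65.9) and Scn3b (5.14). Of the potassium channel genes it was lowest for Kcna3 (2.00), Kcna6 (11.0), Kcnd2 (20.6), Kcnd3 (7.71), Kcnh1 (0.952), Kcnh7 (0.571), Kcnj3 (9.04), Kcnk3 (6.28), Kcnq3 (10.5) and Kcnq5 (9.23). The median log2 deviation of the members there was -0.75.

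Other libraries far from their group were few per gene. Control F03 was high for Cacng8 (51.0 CPM) and Kcnj9 (66.1 CPM). Dehydrated libraries were high for Cacnb3 in M09 (204.0 CPM), Kcnab2 in F06 (248 CPM), Kcnh6 in M02 (7.68 CPM), Kcnh7 in M02 (15.7 CPM), Kcnn1 in F07 (8.84 CPM) and Scn2b in F07 (198 CPM). Dehydrated F06 was low for Kcnk4 (1.58 CPM). Rehydrated libraries were low for Cacna1b in M05 (107 CPM) and Kcna6 in F05 (29.3 CPM), and high for Kcnf1 in M08 (18.9 CPM) and Kcnt1 in F03 (71.0 CPM).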

How the results depend on the processing

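No member passed the adjusted threshold under any alternative run (213 counts, all 0), and none of 29 named differences changed sign in 1247 refits. Those differences were picked by their p in these data and the refits share most libraries, so a kept sign says little. Some refits came near 0, as Kcnq5 in Rehydrated against Control at 0.0014 and Kcnk2 in Dehydrated against Control at 0.014. Counts at an unadjusted p under 0.05 moved (in brackets the share of all genes in that fit): in Dehydrated against Control, 4 under DESeq2 without Control M01 (4.95%), upper quartile factors (6.62%), no sex term (7.48%) or F-named libraries (5.19%), 5 in M-named libraries (10.5%), 7 in those without Control M01 (10.3%), 1 in pore-forming members, and 2 to 4 with a library left out (5.21% to 7.82%). In Rehydrated against Control they were 4 without Control M01 and F03 (6.24%), under DESeq2 with or without Control M01 (6.53% and 6.71%) and under the replicate block (6.94%), 1 in the compared groups alone (5.51%), with the name letter for sex (7.31%) and in pore-forming members, 11 (12.1% of members) in F-named libraries (10.3%), 5 in M-named without Control M01 (8.13%), and 1 to 4 with a library left out (6.49% to 9.02%). In Dehydrated against Rehydrated they were 3 in M-named libraries (2.79%), 1 in pore-forming members, and 4 to 9 with a library left out (3.12% to 6.51%). The members' median turned negative in F-named libraries for both contrasts with Control (-0.034 and -0.010, 35 members above 0 in the first), against 0.203 and 0.152 in M-named ones. It was 0.019 and 0.016 under DESeq2 without Control M01, 0.0062 in Rehydrated without Control M01 and F03, and 0.020 to 0.090 and 0.016 to 0.087 with a library left out, lowest without Control M01. Under the replicate block the Dehydrated against Rehydrated median was -0.049, with 33 above 0. Correlations of same-numbered libraries were low (-0.115 to 0.11 over 19 pairs), highest for M05 of Dehydrated and Rehydrated. Low correlations cannot show that the numbers pair no samples. Apart from the left-out libraries, the cause was not tested. Low members such as Kcnq1 and Scn11a, near 1 CPM or under, are limited by depth.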

Other observations

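Another 45 channel genes of the same families carry a symbol only in the RefSeq table, and 25 of them were tested. Kcnj10, the inward rectifier of astrocytes that clears potassium, stood at 78.2 CPM per kilobase, above all but 2 of the 91 members. Kcnk9, a leak channel, stood at 38.6, Cacng4 at 20.75, the Shaw-type Kcnc2 at 20.2 and the BK beta subunit Kcnmb4 at 11.6. None passed an adjusted p of 0.05 in edgeR in the 3 treatment comparisons. At an unadjusted p under 0.05 there were 0 of 25 in Dehydrated against Control (6.37% of all genes) and 0 in Dehydrated against Rehydrated (3.88%). In Rehydrated against Control there was 1, where 7.48% of all genes had such a p. The 1 was Kcnj2, an inward rectifier, at a log2 difference of -0.52 (SE 0.18).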
